A study of Mus musculus with 47 samples.

Results

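The change in retinal messenger RNA across dawn was examined in young mice by setting 4 retinas taken 2 h after lights on (zeitgeber time 2, ZT2) against 4 taken 2 h before lights on (ZT22). These are 8 of the 47 libraries of the series, and 14428 of the 57180 genes in the table, those with at least 0.5 RPKM in 4 or more of the 8 libraries, were compared. RPKM is the number of reads per kilobase of exon, scaled to the library's total, so that levels of different genes can be set side by side. The whole series sampled retinas every 4 h at 6 zeitgeber times in mice of 6 weeks and of 20 months, to compare daily cycles between the ages. All mice were C57BL/6, a common inbred laboratory strain, without any genetic modification named in the labels, and lived in 12 h of light and 12 h of darkness. Both groups described here were 6 weeks old, and ZT22 fell in the last part of the night and ZT2 in the first part of the day. One right eye was taken from each of 4 mice per time, the front of the eye was removed, the retina was dissected under dim red light, and polyadenylated RNA was sequenced.

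The retina is a light-sensing tissue with a clock of its own. Rods and cones, its photoreceptors, build new membrane discs at the base of their outer segments, and old tips are shed and engulfed each morning by the retinal pigment epithelium, the cell layer that lies against them and regenerates the visual chromophore. Dopamine, released by day, carries the state of light and dark through the tissue by way of cyclic AMP. So does melatonin in animals that make it at night, but melatonin was not measured here. Growth of the outer segment relies on actin filaments, which form in the connecting cilium where new discs emerge.

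Across dawn, transcripts of both cytoplasmic actins, of the photoreceptor actin bundler Fscn2 and of Glmn rose, while transcripts of the pigment epithelium, of a dopamine receptor and a G protein of the same signalling branch, of the nuclear receptor genes Nr4a1 and Rorb and of Irf7 fell. At an adjusted p under 0.05 from limma with Benjamini-Hochberg adjustment over all 14428 genes, 63 genes passed (0.437% of those tested), 25 higher (0.173%) and 38 lower (0.263%) at ZT2. With a fold over 1.5 as well, 32 were called (0.222%), 10 higher (0.0693%) and 22 lower (0.152%). At an unadjusted p under 0.05 there were 1837 genes. Leaving out 1 library at a time left 16 called without ZT2 replicate 2 or 4, 19 without ZT22 replicate 1 or 2, 20 without ZT22 replicate 3 and 23 to 30 in the other cases. Of the 63 genes, 16 passed in all 8 of these fits, 38 in some and 9 in none. Those passing in all 8 were Actg1, Actb, Glmn, Gnaz, Irf7, Nr4a1, Aqp1, Rdh5, Stra6, Enpp2, Col8a2, Itgb8 and 4 clones, pseudogenes or genes without a symbol. Those passing in none included Cdh3, Cotl1, Kdm3a, Plcxd2, Pspc1, Sik2 and Slc35g1. Pcare and Spry2 passed in 7 of 8, and Drd4, Rorb, Nfkbiz and Thbs1 in 6 of 8. In all 63 that passed, no ZT2 library overlapped any ZT22 library. With 4 libraries per group, passing the test all but requires this, so it adds no separate support. Of all tested genes, 4.48% were higher without overlap and 3.71% lower without overlap. Of the 63, 52 were annotated as protein-coding. Differences are given as the log2 of RPKM + 0.5 at ZT2 minus that at ZT22, a scale on which the median of all tested genes was -0.00436 and which understates the change of low genes.

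The libraries held 34.5 to 44.4 M reads, and no 2 replicates agreed within sampling noise (chi-square averaged over genes, 7.77 to 49.4 by pair). On the first principal component, which held 29.3% of the variance, ZT22 replicate 1 stood at 30.8 and the other 7 libraries between -14.9 and 10.7. Markers of rods, the most abundant cells of the labelled tissue, summed to 18177 to 19275 RPKM at ZT2 and 16143 to 18470 RPKM at ZT22, and no gene on the marker lists for rods, cones, inner retinal neurons, ganglion cells, glia, microglia or blood vessels passed. Genes of the lens, which lies next to the retina in the eye, summed to 1.59, 2179, 405 and 16.3 RPKM in ZT22 replicates 1 to 4. At ZT2 they summed to 163 to 1046 RPKM. All 14 tested lens genes had a positive difference, with a median of 1.66 log2, against 48.9% of all tested genes that were positive. None of the 14 passed. Red blood cell genes summed to 21.0 to 127 RPKM at ZT2 and 38.8 to 294 RPKM at ZT22, and none of 5 passed.

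**Figure D1:**
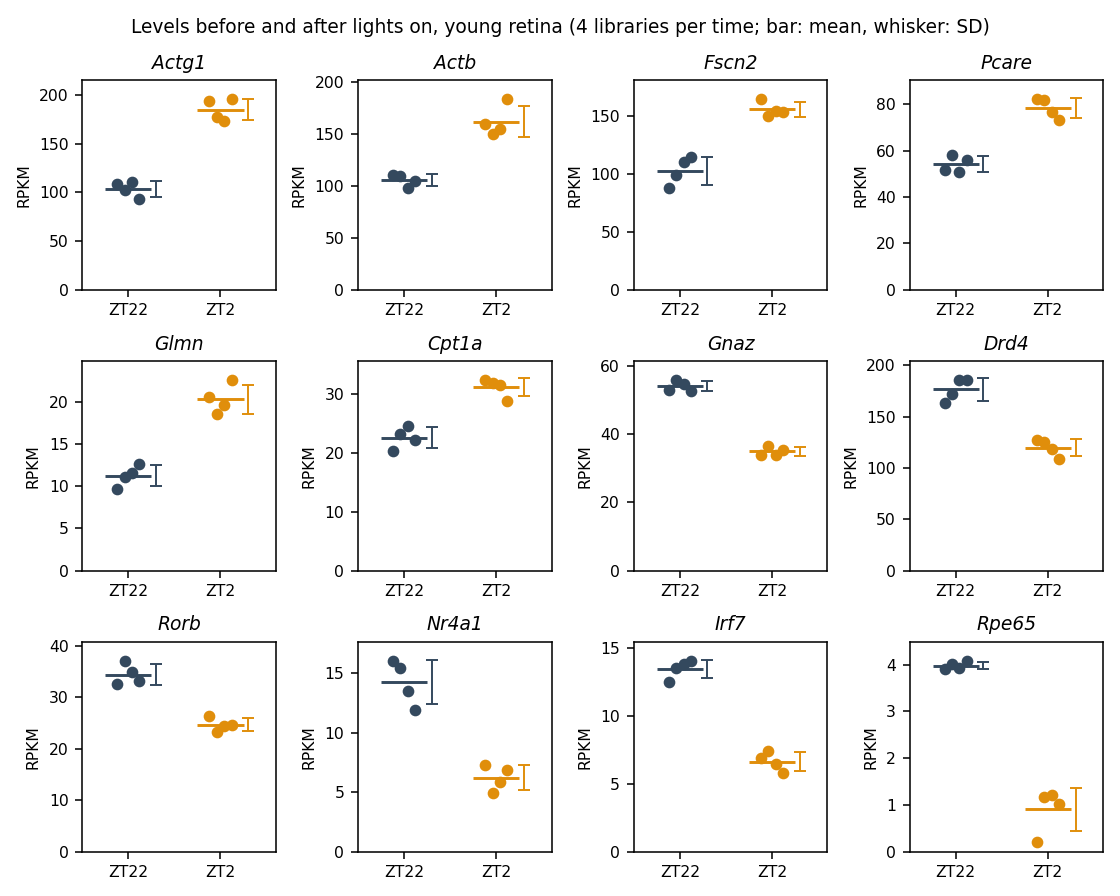
Level in RPKM (vertical axis, from 0) of 12 genes at ZT22 (dark) and ZT2 (orange); each point is 1 library of 4 per time, the bar is the mean and the whisker the SD. The 2 times do not overlap for any of the 12; Actg1 to Cpt1a were higher at ZT2 and Gnaz to Rpe65 lower.

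Actg1 (ENSMUSG00000062825) encodes gamma-actin, 1 of the 2 actins of non-muscle cells. Its level was 194, 178, 173 and 196 RPKM in the ZT2 libraries and 109, 102, 111 and 93.0 RPKM in the ZT22 libraries. Every ZT2 library thus lay far above every ZT22 library, with means of 185 ± 11.2 and 104 ± 8.07 RPKM (SD, n = 4 each), a log2 difference of 0.83 ± 0.07 (SE) and an adjusted p of 0.00333 (limma). Actb, the beta-actin gene often used as a reference in expression work, was at 159, 150.0, 154 and 183 RPKM at ZT2 and 110.2, 109.5, 98.2 and 105 RPKM at ZT22. It was higher in each ZT2 library, by 0.61 ± 0.07 on the log2 scale (limma adjusted p = 0.0112). Fscn2, a fascin found in photoreceptors and hair cells that ties actin filaments into bundles, was at 165, 150.3, 155 and 154 RPKM at ZT2 and 87.6, 98.8, 110.4 and 115 RPKM at ZT22. The ZT2 libraries were close together and the ZT22 libraries spread more widely below them, and the log2 difference was 0.60 ± 0.09 (limma adjusted p = 0.0223). Fscn2 passed in only 3 of the 8 fits that left out 1 library, with an adjusted p of up to 0.0809, whereas Actg1 and Actb passed in all 8.

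The start of Actg1 is shown because this gene had the smallest adjusted p of any rise; the sequence is RefSeq's on GRCm38.p6, 250 bases before to 50 after the annotated start, minus strand, chr11:120348446-120348745, with matches to an E-box (CACGTG, a site read by the clock activators among others) and to the CArG box, the serum response element, in capitals.
Actg1 promoter: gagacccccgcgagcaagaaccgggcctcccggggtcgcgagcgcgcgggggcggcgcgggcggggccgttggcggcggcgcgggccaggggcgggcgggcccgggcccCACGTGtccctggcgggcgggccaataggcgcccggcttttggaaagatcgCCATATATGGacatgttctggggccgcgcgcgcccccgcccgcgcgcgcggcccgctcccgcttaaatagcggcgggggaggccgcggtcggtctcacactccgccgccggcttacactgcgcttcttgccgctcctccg
The CArG box was looked for after the rise of the actin genes was known. Of the 32851 promoters of this length in the table, 1.63% hold one and 7.15% hold the E-box. Of the 9975 tested genes matched to a promoter, 1.5% hold the CArG box and 11.7% the E-box. Both motifs were searched on both strands. Fscn2 lies on the same chromosome with a single tested gene between it and Actg1, and its promoter (chr11:120361284-120361583, plus strand) is given for comparison; it held none of the motifs searched (E-box CACGTG, cyclic AMP element TGACGTCA and its core TGACG, D-box TTATGTAA, heat shock element GAANNTTC, CRX core CTAATCC, CArG box).
Fscn2 promoter: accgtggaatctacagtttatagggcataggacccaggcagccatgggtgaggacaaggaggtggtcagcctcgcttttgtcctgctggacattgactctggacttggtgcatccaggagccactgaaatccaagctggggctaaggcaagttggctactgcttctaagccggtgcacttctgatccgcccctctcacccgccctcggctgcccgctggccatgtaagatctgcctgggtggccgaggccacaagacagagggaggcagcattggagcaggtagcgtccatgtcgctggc
Neither promoter of Glmn in the table held any of these motifs. A match is a description of the letters and not of a bound factor.

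Of 42 tested genes of the actin cytoskeleton, a list drawn up after these rises were seen, 4 passed as higher at ZT2 and none as lower. Of all tested genes, 0.173% and 0.263% did. Of the 42, 22 had a positive difference, and the median log2 difference was 0.02. The fourth was Cotl1, a coactosin-like protein that binds filamentous actin, at 43.2, 46.6, 45.5 and 40.6 RPKM at ZT2 and 33.7, 31.9, 36.7 and 33.6 RPKM at ZT22 (0.37 ± 0.06 log2, limma adjusted p = 0.0487), which passed in none of the 8 fits with a library left out. The other 38 lay between -0.17 and 0.20 on the log2 scale. They include the subunits of the Arp2/3 complex that nucleates branched filaments, such as Arpc2 (0.07), the severing protein gene Cfl1 (0.10), the monomer-binding Pfn1 (0.10), the neuronal relative of Fscn2, Fscn1 (-0.05), and Srf, the transcription factor of the CArG box (0.20). A further gene of this kind outside the list, Pcare, encodes a photoreceptor ciliary protein that recruits actin regulators to the site of new discs. Pcare was at 82.1, 81.8, 76.6 and 73.1 RPKM at ZT2 and 51.7, 58.1, 50.9 and 55.9 RPKM at ZT22, higher in every ZT2 library by 0.53 ± 0.06 log2 (limma adjusted p = 0.0112).

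Genes of the disc and of phototransduction itself did not pass. None of 16 tested genes of outer segment disc and cilium structure, of 21 of rod phototransduction and of 12 of cone phototransduction passed, and their median log2 differences were 0.04, 0.07 and 0.09. Prph2, a disc rim protein, differed by 0.17 ± 0.11 log2, within the spread between replicates by the limma test (adjusted p = 0.529). None of 14 tested receptors and ligands of outer segment phagocytosis passed either. Mertk, the engulfment receptor of the pigment epithelium, was at 0.592, 0.448, 0.530 and 0.596 RPKM at ZT2 and 0.815, 0.670, 0.994 and 0.655 RPKM at ZT22, near the lower limit of the comparison (limma adjusted p = 0.36).

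Glmn encodes glomulin, which binds RBX1 and so restrains cullin-RING ubiquitin ligases. It was at 20.5, 18.5, 19.6 and 22.5 RPKM at ZT2 and 9.72, 11.1, 11.5 and 12.6 RPKM at ZT22. The lowest ZT2 library stood well above the highest ZT22 library, and the log2 difference was 0.83 ± 0.09 (limma adjusted p = 0.00885), past the threshold in all 8 fits with a library left out. Its neighbour Rpap2, a phosphatase of the RNA polymerase II tail with no tested gene between them, was at 4.46, 4.15, 4.27 and 4.50 RPKM at ZT2 and 2.93, 2.68, 2.92 and 3.39 RPKM at ZT22, a log2 difference of 0.48 ± 0.08 (limma adjusted p = 0.0389). Rpap2 passed in only 1 of the 8 fits with a library left out, with a limma adjusted p of up to 0.13. A second adjacent pair was Cotl1 and Klhl36, a kelch-like adaptor gene, which was higher at ZT2 by 0.48 log2 and passed in 2 of the 8 fits. Of the 63 genes, 57 could be placed in RefSeq gene order, and all 4 pairs that were adjacent or had 1 tested gene between them moved in the same direction. How often unrelated genes would lie this close or share a direction was not tested.

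Fat-burning enzymes supplied 2 of the smaller rises. Cpt1a, which brings long-chain fatty acids into mitochondria, was at 32.3, 31.8, 31.5 and 28.8 RPKM at ZT2 and 20.2, 23.2, 24.6 and 22.2 RPKM at ZT22, without overlap (0.46 ± 0.07 log2, limma adjusted p = 0.0279). Acadm, the medium-chain acyl-CoA dehydrogenase, was at 23.6, 24.5, 24.1 and 23.6 RPKM at ZT2 and 16.4, 17.6, 17.6 and 20.3 RPKM at ZT22 (0.41 ± 0.07 log2, limma adjusted p = 0.0389). These were 2 of 23 tested fatty acid oxidation genes, a list also drawn up after seeing them, whose median was 0.05. Of all tested genes, 0.173% passed as higher. Because the list was drawn up with these 2 genes known, its count is no test of the pathway. Slc25a20, the carnitine carrier between these steps, was higher in all ZT2 libraries at 0.32 log2 and did not pass (limma adjusted p = 0.189). Cpt1a and Acadm passed in 2 and 1 of the 8 fits with a library left out.

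The remaining protein-coding rises were below the fold of 1.5 and are named after their values were seen. They ran from 0.36 log2 for Pspc1, a paraspeckle protein, through Mat2a, which makes S-adenosylmethionine (0.42), Ehd4, of endosomal recycling (0.49), and Nudt2, which splits diadenosine tetraphosphate (0.52), to 0.54 for Yif1a, of transport between endoplasmic reticulum and Golgi. Ubtd1 (0.48) and Shisa4 (0.39) were the others. Of the 10 called rises, 6 were clones, pseudogenes or lacked a symbol. One of them, Gm12715, is 99.6% identical to Actg1 over its 1128 bases, so its reads could not be told apart from those of Actg1 with certainty; Gm12966 is 99.0% identical over its 810 bases to Srsf5, a splicing factor gene that was itself higher by 0.40 log2 without passing (limma adjusted p = 0.169).

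Of the 2 cold-inducible genes tested, 1 came near the threshold. Cirbp, which binds RNA and rises when body temperature falls, was higher without overlap at means of 97.0 ± 6.01 and 73.1 ± 5.76 RPKM (SD, n = 4 each), with a limma adjusted p of 0.0501, just outside the threshold; Rbm3 stood at 0.33 log2 (limma adjusted p = 0.278). Neither gene passed. Of 77 tested ribosomal protein genes 76 had a positive difference, with a median of 0.14 and none past the test, and of 37 complex I genes 35 did, with a median of 0.13 and none past it, while 48.9% of all tested genes were positive. The summed levels overlapped. Ribosomal protein genes summed to 8881 to 9135 RPKM at ZT2 and to 7561, 6825, 9094 and 9581 RPKM at ZT22, and complex I genes to 1787 to 1873 RPKM and to 1548, 1412, 1783 and 1927 RPKM. ZT22 replicates 1 and 2 were thus the low libraries, and without replicate 2 the medians were 0.0505 and 0.0606, with 68 and 33 genes positive; without replicate 1 they were 0.105 and 0.0948, with 73 and 35.

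Among the falls that passed were 2 of the 13 tested genes of the dopamine, cyclic AMP and melatonin list, and none of the 13 passed as higher. Of all tested genes, 0.263% passed as lower. Aanat, a gene of melatonin synthesis, was at 0 to 0.331 RPKM in the 8 libraries, too low to be tested. Drd4, the D4 dopamine receptor of photoreceptors, which couples to inhibition of adenylyl cyclase, was at 127, 125, 118 and 109 RPKM at ZT2 and 163, 172, 185 and 185 RPKM at ZT22. Every ZT2 library was below every ZT22 library (-0.56 ± 0.07 log2, limma adjusted p = 0.0124). Gnaz, the alpha subunit of Gz, a G protein that also inhibits adenylyl cyclase, was at 34.0, 36.7, 34.0 and 35.5 RPKM at ZT2 and 52.9, 55.8, 54.6 and 52.8 RPKM at ZT22. The highest ZT2 library was far below the lowest ZT22 library, and together with Irf7 it had the smallest adjusted p of all tested genes (-0.62 ± 0.05 log2, limma adjusted p = 0.00225). The other 11 did not pass: Th, which makes the dopamine precursor, was at 0.619, 0.864, 0.549 and 0.752 RPKM at ZT2 and 1.09, 0.597, 0.644 and 0.662 RPKM at ZT22 with overlap, Drd1 differed by -0.26 log2, Drd2 by -0.23 log2 and Adcy1, an adenylyl cyclase of photoreceptors, by -0.21 log2 (limma adjusted p = 0.346).

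Nr4a1, an orphan nuclear receptor gene induced within minutes by cyclic AMP, calcium and depolarisation, was at 7.31, 4.94, 5.81 and 6.82 RPKM at ZT2 and 16.0, 15.5, 13.5 and 11.9 RPKM at ZT22. The highest ZT2 library lay below the lowest ZT22 library, and the log2 difference was -1.14 ± 0.13 (limma adjusted p = 0.00999). It was the only one of 27 tested immediate early genes to pass, against 0.263% of all tested genes that passed as lower. An unadjusted limma p under 0.05 was found for 13 of the 27, against 1837 of all 14428 tested genes. Of the 27, 7 were lower at ZT2 without overlap, against 3.71% of all tested genes, and 1 was higher without overlap, against 4.48%. Besides Nr4a1 and Sik1, the lower ones were Ier2 (-0.56 log2), Dusp1, a phosphatase of MAP kinases (-0.54), Ier5 (-0.28), Ier3 (-0.26) and Jun, a subunit of the AP-1 factor (-0.23), with limma adjusted p of 0.17 to 0.285. Btg2, which restrains cell division, was the higher one (0.23 log2, limma adjusted p = 0.118). Ier2 was at 11.2, 8.28, 12.4 and 14.2 RPKM at ZT2 and 19.1, 16.7, 16.9 and 15.1 RPKM at ZT22. Others overlapped and spread widely: Egr1 was at 2.25, 1.23, 3.35 and 5.82 RPKM at ZT2 and 17.6, 5.84, 9.12 and 2.73 RPKM at ZT22, and Fos at 4.87, 4.59, 5.44 and 7.97 RPKM at ZT2 and 17.6, 8.83, 10.4 and 6.51 RPKM at ZT22 (limma adjusted p = 0.366 and 0.275). In both genes ZT22 replicate 1, which also stood apart on the first principal component, was the highest of the 8 libraries. Without it the difference was -0.83 log2 for Egr1 (from -1.24) and -0.55 log2 for Fos (from -0.81), and neither passed (limma adjusted p = 0.629 and 0.432). Sik1, a salt-inducible kinase gene induced by cyclic AMP, was lower without overlap at -0.62 log2 and did not pass (limma adjusted p = 0.118), while its constitutive relative Sik2 was at 6.51, 6.84, 5.86 and 4.67 RPKM at ZT2 and 9.11, 10.8, 9.03 and 9.46 RPKM at ZT22 and passed (-0.65 ± 0.11 log2, limma adjusted p = 0.0467). Sik2 passed in none of the 8 fits with a library left out.

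The start of Nr4a1 is shown because it holds 4 cyclic AMP cores; it was chosen after its values were seen, since it is not among the 4 leading falls. The sequence is on GRCm38.p6, plus strand, chr15:101266596-101266895, and the capitals mark CGTCA, the core TGACG read on the other strand.
Nr4a1 promoter: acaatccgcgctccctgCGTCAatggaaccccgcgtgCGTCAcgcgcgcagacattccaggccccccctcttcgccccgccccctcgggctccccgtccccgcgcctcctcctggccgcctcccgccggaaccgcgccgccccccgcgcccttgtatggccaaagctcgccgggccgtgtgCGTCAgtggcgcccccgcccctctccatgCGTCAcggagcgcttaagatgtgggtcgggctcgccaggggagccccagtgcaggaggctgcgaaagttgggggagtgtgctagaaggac
The core occurs in 20.8% of the 32851 promoters in the table, in 35.8% of the 9975 tested genes matched to it, in 22.2% of 27 matched genes that fell and in 26.7% of 15 that rose.

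Irf7, the transcription factor that drives type I interferon genes, was at 6.88, 7.41, 6.43 and 5.83 RPKM at ZT2 and 12.5, 13.5, 13.8 and 14.03 RPKM at ZT22. Its level at ZT2 was below that in every ZT22 library by a wide gap (-0.97 ± 0.08 log2, limma adjusted p = 0.00225). It was the only one of 13 tested interferon response genes to pass, against 0.263% of all tested genes that passed as lower. The list's median was 0.01. Ifit1 and Isg15, which interferon induces, differed by 0.30 and 0.01 log2 (limma adjusted p = 0.487 and 0.99). Irf7 and Drd4 lie on the same chromosome with 1 tested gene between them. Nfkbiz, an atypical IkappaB protein of inflammatory transcription, also fell, at -0.58 log2.

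Of the 20 tested genes of the core clock and its output factors, 1 passed, against 0.437% of all tested genes. Rorb, a retinoid-related orphan receptor of the retina that acts on the same sites as Rora, was at 26.4, 23.3, 24.3 and 24.5 RPKM at ZT2 and 32.5, 37.0, 34.8 and 33.2 RPKM at ZT22. It was lower in every ZT2 library (-0.47 ± 0.06 log2, limma adjusted p = 0.0135). Its relative Rora was at 19.6, 19.8, 19.6 and 18.2 RPKM at ZT2 and 22.4, 25.4, 23.5 and 23.0 RPKM at ZT22, likewise without overlap, but did not pass (-0.28 ± 0.06 log2, limma adjusted p = 0.0914). Apart from Rorb, differences ran from -0.28 to 0.14 log2, and 16 of the 20 were negative, while 48.9% of all tested genes were positive. The repressor genes Per1 (-0.22 ± 0.07 log2), Per2 (-0.28 ± 0.13), Per3 (-0.05 ± 0.10), Cry1 (0.02 ± 0.08) and Cry2 (-0.11 ± 0.10) and the activator genes Clock (-0.22 ± 0.08), Arntl (0.03 ± 0.06) and Npas2 (-0.20 ± 0.16) all had limma adjusted p of at least 0.283. Nr1d1 and Nr1d2, the REV-ERB repressors, were at -0.19 and -0.18 log2, and Ciart at -0.01. Among output factors, Dbp was at 0.14 log2, Tef at -0.03, Hlf at -0.13, Nfil3 at -0.25, Bhlhe40 at -0.16 and Bhlhe41 at 0.02. These small differences between 2 times 4 h apart say nothing on whether the genes cycled over the whole day.

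Several falls concerned regulators and metabolism. Klf9, a zinc finger factor that responds to glucocorticoid hormone, was at 24.4, 28.6, 25.8 and 26.8 RPKM at ZT2 and 34.2, 38.5, 35.9 and 33.8 RPKM at ZT22 (-0.42 ± 0.07 log2, limma adjusted p = 0.0292). It was the only one of 13 tested glucocorticoid-responsive genes to pass, and Fkbp5, another such gene, differed by 0.04 log2. Of all tested genes, 0.263% passed as lower. Slc16a3, the lactate exporter MCT4, was at 17.8, 16.9, 16.1 and 15.1 RPKM at ZT2 and 21.2, 25.4, 22.3 and 27.7 RPKM at ZT22 and was the only one of 21 tested glycolysis genes to pass (-0.53 ± 0.09 log2, limma adjusted p = 0.0445). P4ha1, a collagen prolyl hydroxylase subunit, fell to 10.9 ± 1.01 from 16.6 ± 2.02 RPKM (SD, n = 4 each), and Kdm3a, a histone H3 lysine 9 demethylase, was lower at -0.48 log2; none of 11 tested hypoxia and Vegf genes passed. With a library left out, Klf9, Slc16a3 and P4ha1 each passed in 1 of the 8 fits, with adjusted p of up to 0.121, 0.159 and 0.137. Aqp1, the water channel, was at 103, 103, 99.7 and 89.9 RPKM at ZT2 and 132, 142, 141 and 143 RPKM at ZT22, with every ZT2 library below every ZT22 library (-0.50 ± 0.06 log2, limma adjusted p = 0.0112).

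The other falls outside the pigment epithelium were moderate. Mxi1, an antagonist of Myc, was lower at -0.45 log2, Spry2, an inhibitor of growth factor signalling, at -0.43, Kif2a, a kinesin that shortens microtubules, at -0.42, and Zdhhc5, a palmitoyltransferase, at -0.41. Slc35g1, a membrane transporter family gene, was at 2.16, 2.10, 1.67 and 1.75 RPKM at ZT2 and 2.89, 3.01, 3.39 and 3.27 RPKM at ZT22 and passed in none of the 8 fits with a library left out (-0.59 ± 0.09 log2, limma adjusted p = 0.0343). Btbd10, Rhobtb1, Ccdc117, Wfikkn2 and Plcxd2 fell, with differences of -0.48, -0.53, -0.55, -0.58 and -0.30 log2.

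The falls of greatest size were in genes of the retinal pigment epithelium, a layer that is separated from the retina in dissection to a varying degree. Of 10 tested genes on that list 6 passed as lower at ZT2 and none as higher, against 0.263% and 0.173% of all tested genes. The median log2 difference was -1.09, against -0.00436 for all tested genes, and 1 of the 10 differences was positive. None of the 12 listed markers was at 0 in all 8 libraries, and Best1 and Krt8 were too low to be tested. The summed level of the list was 76.2 to 87.4 RPKM at ZT2 and 98.3 to 147 RPKM at ZT22, without overlap. In such bulk tissue fewer cells of a type and less RNA per cell cannot be told apart, and whether pigment epithelium was carried along to the same extent at both times was not tested.

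Rpe65, the isomerase that regenerates 11-cis retinol in the pigment epithelium, was at 0.209, 1.16, 1.21 and 1.02 RPKM at ZT2 and 3.92, 4.01, 3.92 and 4.08 RPKM at ZT22. The ZT22 libraries agreed closely and ZT2 replicate 1 was the lowest by far (-1.76 ± 0.25 log2, limma adjusted p = 0.0223). Rgr, a light-absorbing opsin of the pigment epithelium and Müller glia, was at 0.640, 2.10, 3.24 and 2.77 RPKM at ZT2 and 8.26, 8.03, 8.68 and 10.3 RPKM at ZT22. Here too ZT2 replicate 1 was the lowest (-1.92 ± 0.32 log2, limma adjusted p = 0.0389). Ttr, the thyroxine and retinol-binding protein carrier transthyretin, was also lowest in ZT2 replicate 1, at 2.96, 8.02, 11.5 and 7.66 RPKM at ZT2 and 26.2, 24.1, 26.8 and 35.4 RPKM at ZT22 (-1.95 ± 0.32 log2, limma adjusted p = 0.0389). Slc16a8, the lactate transporter of this epithelium, was at 0.574, 0.820, 1.40 and 1.12 RPKM at ZT2 and 3.02, 2.47, 3.18 and 4.33 RPKM at ZT22 (-1.35 ± 0.20 log2, limma adjusted p = 0.0248). Its lowest ZT2 library was again replicate 1, and no library overlapped. Rdh5, the 11-cis retinol dehydrogenase, was at 0.521, 0.862, 0.827 and 0.613 RPKM at ZT2 and 1.99, 1.83, 2.42 and 2.90 RPKM at ZT22 (-1.20 ± 0.15 log2, limma adjusted p = 0.0112). Stra6, the receptor that takes up retinol, was at 0.494, 0.627, 0.497 and 0.653 RPKM at ZT2 and 1.63, 1.47, 1.73 and 1.55 RPKM at ZT22 (-0.97 ± 0.10 log2, limma adjusted p = 0.00885). In Rdh5 and, by a narrow margin, in Stra6 the lowest library was also ZT2 replicate 1. Rdh5 and Stra6 passed in all 8 fits with a library left out, Slc16a8 in 3 of 8, and Ttr, Rgr and Rpe65 in 2 of 8.

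**Figure D2:**
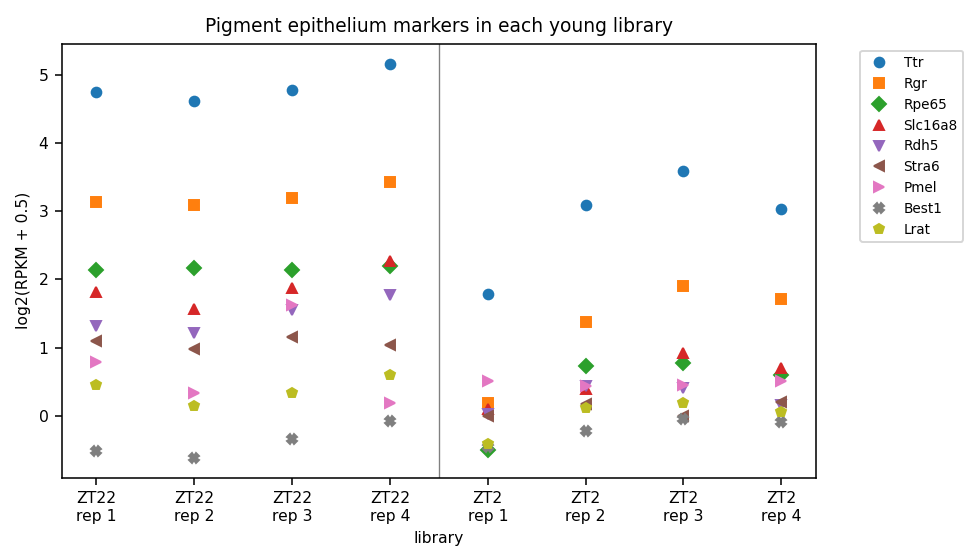
Level on the log2(RPKM + 0.5) scale (vertical axis) of 9 pigment epithelium markers in each of the 8 libraries (horizontal axis, ZT22 left and ZT2 right of the line); each symbol is 1 gene. Ttr to Stra6 lie lower in every ZT2 library, lowest in ZT2 replicate 1 for each of them, by a narrow margin for Stra6. Pmel, Best1 and Lrat overlap between the times.

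Not every gene of the epithelium followed. Krt18, a keratin on the list, was at 74.9, 63.6, 61.5 and 55.8 RPKM at ZT2 and 59.3, 50.1, 69.4 and 79.1 RPKM at ZT22, with the groups overlapping throughout (limma adjusted p = 1), and it supplied most of the summed level. Lrat, which esterifies retinol, and Pmel, a melanosome protein, did not pass (-0.39 and -0.26 log2, limma adjusted p = 0.357 and 0.693). Of the 3 tested melanocyte markers none passed, although Tyrp1 (-0.81 log2) and Dct (-0.65 log2), of pigment synthesis, were lower without overlap. Within the retinoid cycle list 2 of 14 passed as lower, the same Rdh5 and Stra6, and none as higher, against 0.263% and 0.173% of all tested genes. Of the 14, 7 had a positive difference. The retinol dehydrogenase gene Rdh10 of the same list was lower without overlap and did not pass (-0.54 ± 0.09 log2, limma adjusted p = 0.0515). Of the photoreceptor and Müller glia genes on the list, Rdh12 (0.19 log2), Abca4 (0.07) and Rlbp1 (0.08) did not pass, with limma adjusted p of 0.348, 0.715 and 0.774. An unadjusted limma p under 0.05 was found for 5 of the 14, against 1837 of all 14428 tested genes.

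The start of Rpe65 is shown as that of the best known gene of the layer; RefSeq's sequence on GRCm38.p6 lies on the plus strand at chr3:159598931-159599230, and capitals mark a D-box (TTATGTAA, a site of the clock output factors Dbp, Tef, Hlf and Nfil3) and the CRX core CTAATCC, here read on the other strand as GGATTAG.
Rpe65 promoter: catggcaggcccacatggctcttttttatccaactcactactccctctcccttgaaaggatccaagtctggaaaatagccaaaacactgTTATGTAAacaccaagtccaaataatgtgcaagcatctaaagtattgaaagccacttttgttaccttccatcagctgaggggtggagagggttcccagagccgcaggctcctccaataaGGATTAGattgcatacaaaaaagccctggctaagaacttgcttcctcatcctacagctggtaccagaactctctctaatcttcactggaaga
The D-box occurs in 0.938% and the CRX core in 2.05% of the 32851 promoters, and in 0.702% and 2.68% of the 9975 matched tested genes. The promoter of Rgr held none of the motifs.

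More falls outside the list were of similar size. Trf, the iron carrier transferrin, was at 10.7, 18.5, 22.7 and 19.1 RPKM at ZT2 and 42.6, 36.4, 41.8 and 45.0 RPKM at ZT22 (-1.24 ± 0.19 log2, limma adjusted p = 0.0292), and passed in 2 of the 8 fits with a library left out. Thbs1, thrombospondin 1 of the extracellular matrix, was at 0.234, 0.428, 0.769 and 0.334 RPKM at ZT2 and 2.03, 1.50, 2.75 and 2.38 RPKM at ZT22 (-1.51 ± 0.20 log2, limma adjusted p = 0.0141). In both genes the lowest library was ZT2 replicate 1, as for Rpe65. Enpp2, the lysophospholipase D autotaxin, was at 4.04, 3.50, 3.95 and 3.87 RPKM at ZT2 and 7.18, 7.02, 8.76 and 6.52 RPKM at ZT22 (-0.85 ± 0.09 log2, limma adjusted p = 0.00885). The collagen VIII chains Col8a2 (-1.39 ± 0.15 log2) and Col8a1 (-0.89 ± 0.14 log2), the cadherin Cdh3 (-0.83 ± 0.13 log2) and the integrin subunit Itgb8 (-0.79 ± 0.09 log2) were called as well, all at means under 2 RPKM. With the mean log2 level of the pigment epithelium list as a covariate, none of the 63 genes passed, and Ttr, Rgr and Trf turned positive, while 60 of the 63 kept their sign. That level is computed partly from Ttr, Rgr and the list's other passing genes, so their loss is in part built into the fit. The level also did not overlap between ZT2 and ZT22, so such a fit cannot tell it apart from the time.

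The same contrast in the 20-month mice rests on 8 other libraries. There, 81 of the 14428 genes passed (0.561%). Of the 63 young genes, 60 had the same sign in aged retina, against 66.8% of all tested genes. With the same sign 28 passed at both ages, which is 44.4% of the young and 34.6% of the aged list. The median size of the difference over the 63 was 0.586 log2 in young and 0.760 log2 in aged retina, and over all genes 0.105 and 0.106; since the 63 were chosen in the young libraries, only the second value is free of that choice. Actg1 differed by 0.93 ± 0.10 log2 in aged retina (limma adjusted p = 0.0115) and Glmn by 0.86 ± 0.11 (limma adjusted p = 0.0246). Gnaz was lower at -0.72 ± 0.08 log2 (limma adjusted p = 0.0198) and Drd4 at -0.63 ± 0.11 (limma adjusted p = 0.0488). Irf7, at -1.25 ± 0.09 log2, and Rpe65, at -2.53 ± 0.38 log2, passed in aged retina too (limma adjusted p = 0.00321 and 0.0406). Actb (0.69 log2), Fscn2 (0.50) and Nr4a1 (-1.27) kept their direction without passing (limma adjusted p = 0.079, 0.176 and 0.0549). The 3 with opposite signs were Gm22281, Gm47160 and Rps12-ps26, which are clones or pseudogenes.

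In the test of whether the dawn change differed between the ages (limma, 16 libraries in 4 groups), 0 of 14428 genes passed, with 592 at an unadjusted p under 0.05. The smallest p belonged to Xbp1, a transcription factor of the unfolded protein response, at -0.06 log2 in young and -0.74 log2 in aged retina (limma adjusted p = 0.804). Then came Rbm14, a paraspeckle protein gene, with a young minus aged difference of 0.56 ± 0.11 log2, Zfp790 (-0.53 ± 0.11), the autophagy gene Atg4c (0.34 ± 0.07), Srrt (0.34 ± 0.08) and Rsrp1 (-0.64 ± 0.15), with adjusted p of 0.804 to 0.813 by limma.

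**Figure D3:**
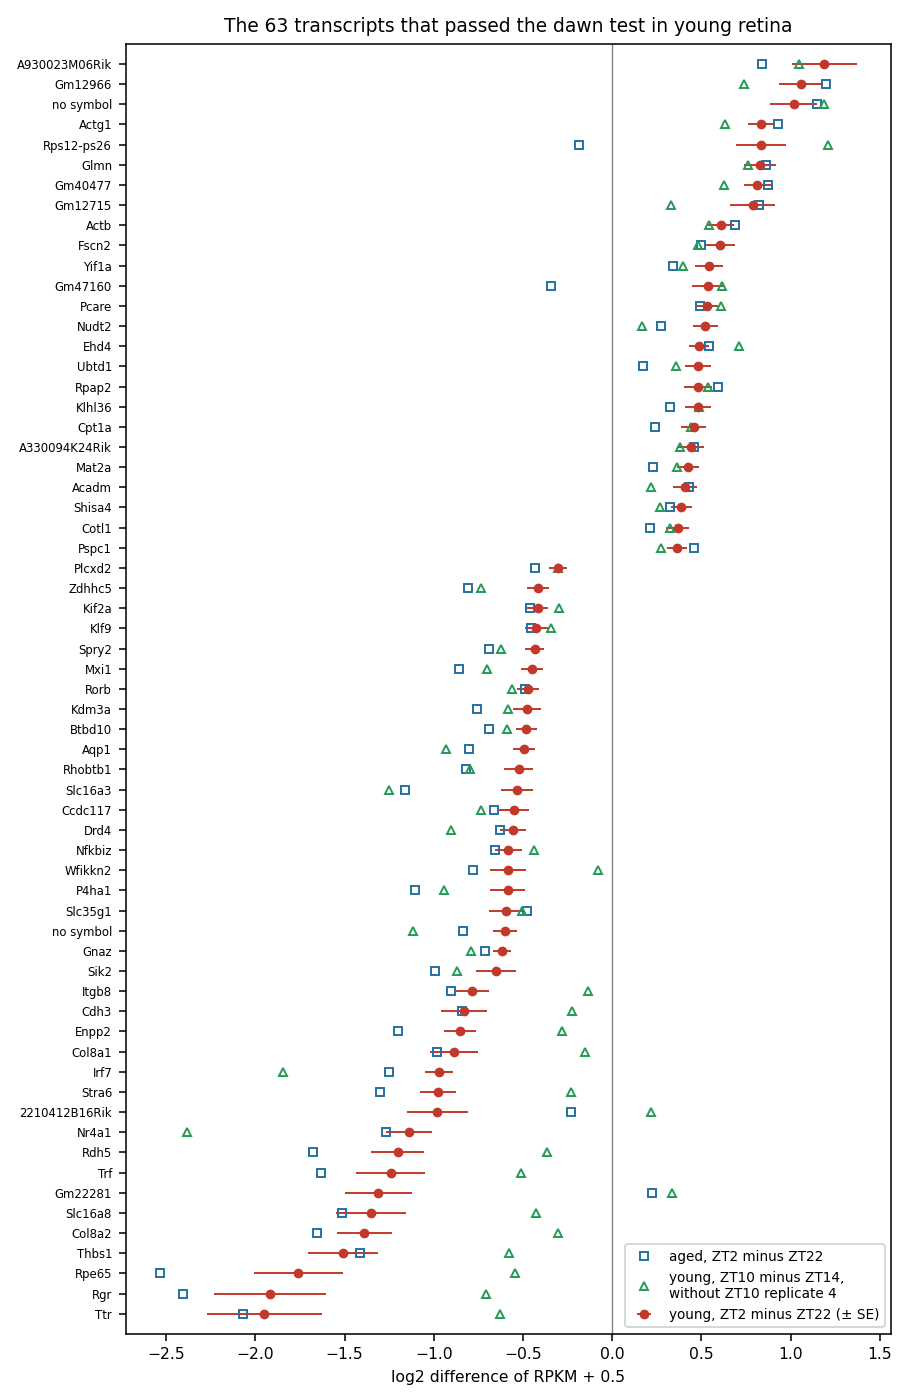
Log2 difference of RPKM + 0.5 (horizontal axis) of the 63 genes that passed in young retina across dawn (red, with SE), in aged retina across dawn (blue squares) and in young retina between ZT10 and ZT14 without ZT10 replicate 4 (green triangles). Aged values lie on the same side of 0 for 60 genes, and the ZT10 to ZT14 values of Ttr, Rgr and Rpe65 lie nearer to 0 than their dawn values.

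The other border between day and night was set beside dawn in 8 more young libraries, as light minus dark: ZT10, 2 h before lights off, minus ZT14, 2 h after. With all 8 libraries 7 genes passed (0.0485%), and all 63 dawn genes had the same sign, against 70.6% of all tested genes. Young ZT10 replicate 4 stands apart from its group; without it 163 genes passed, 61 of the 63 had the same sign against 52.1% of all genes, and 27 of them passed, 42.9% of the dawn list and 16.6% of the dusk list. Aqp1 (-0.95 log2), Nr4a1 (-2.49 log2) and Slc16a3 (-1.34 log2) passed across dusk with that library included (limma adjusted p = 0.043, 0.00303 and 0.0152). Without it, Irf7 differed by -1.84 log2, Drd4 by -0.90, Gnaz by -0.79, Rorb by -0.56, Glmn by 0.76, Actg1 by 0.63 and Pcare by 0.61, all past the threshold (limma adjusted p from 0.00108 to 0.0426). The pigment epithelium genes Rpe65 (-0.55 log2), Rgr (-0.71) and Ttr (-0.63) did not pass across dusk (limma adjusted p = 0.235, 0.29 and 0.293).

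One gene, Hspa1b, an inducible heat shock chaperone of the HSP70 family, passed the test of the difference between dawn and dusk, which used 16 young libraries. It was at 22.4, 22.4, 21.8 and 19.5 RPKM at ZT2 and 20.4, 20.2, 20.3 and 21.7 RPKM at ZT22 with the groups overlapping. Across dusk its means were 14.9 ± 0.372 RPKM at ZT10 and 26.7 ± 1.42 RPKM at ZT14 (SD, n = 4 each), so the 2 light minus dark differences were 0.06 and -0.82 log2 and differed by 0.88 ± 0.09 (SE, limma adjusted p = 0.00139). Hspa1a is a near-identical copy at which reads may be shared, and it differed by 0.64 ± 0.11 log2 (limma adjusted p = 0.137). At an unadjusted p under 0.05 there were 527 genes. Without ZT10 replicate 4, 6 genes passed, among them Hspa1b, Hspa1a, Xbp1, Map3k14, a kinase of the non-canonical NF-kappaB pathway, and Nr4a1, whose fall across dawn was smaller than its light minus dark difference across dusk by 1.24 log2 (limma adjusted p = 0.0242). Manf, an endoplasmic reticulum stress protein gene, had the next smallest p of the genes named by rule and did not pass (limma adjusted p = 0.0807 without that library).

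**Figure D4:**
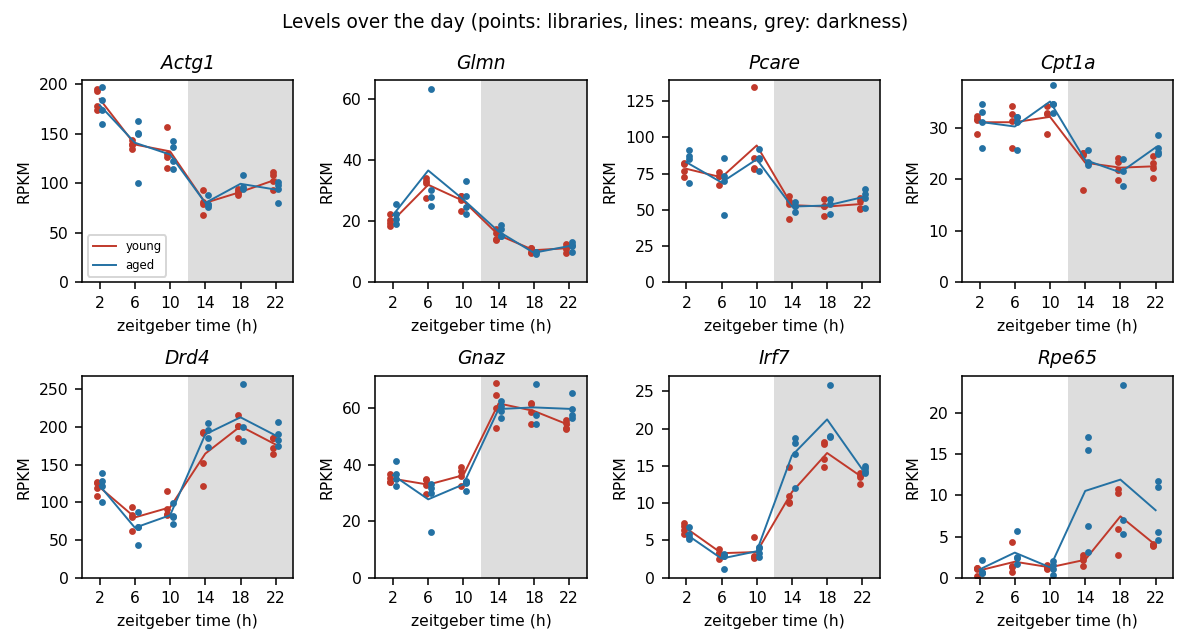
Level in RPKM (vertical axis, from 0) of 8 genes over zeitgeber time in hours (horizontal axis; grey marks darkness) in young (red) and aged (blue) retina; points are libraries, 4 per age and time except 3 at aged ZT18, and lines join means. Actg1 has its highest mean at ZT2 at both ages and Glmn at ZT6, while Drd4, Gnaz and Irf7 have higher means at ZT14, ZT18 and ZT22 than at ZT2, ZT6 and ZT10. The aged ZT6 mean of Glmn includes replicate 3 at 63.4 RPKM, with the others at 27.85, 25.2 and 30.1 RPKM.

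Over the whole day the dawn genes took several courses. Mean Actg1 in young retina was 185 RPKM at ZT2, its highest, then 139 at ZT6, 132 at ZT10 and 80.3 at ZT14, its lowest, before 91.2 at ZT18 and 104 at ZT22. Mean Glmn went from 20.3 RPKM at ZT2 to 32.0 at ZT6, and was at 10.5 RPKM at ZT18. Cpt1a had similar means through the light, at 31.1, 31.1 and 32.2 RPKM, and through the dark, at 23.2, 22.3 and 22.6 RPKM. Gnaz likewise had means of 35.0, 32.9 and 36.3 RPKM in the light and 61.7, 59.0 and 54.0 RPKM in the dark. Drd4 and Irf7 had lower means at ZT6 than at ZT2: Drd4 was at 119.9 RPKM at ZT2 and 80.0 at ZT6, and Irf7 at 6.64 and 3.30 RPKM. Nr4a1 stood highest just after dusk, at 30.3 RPKM at ZT14, against 26.3 at ZT18 and 14.2 at ZT22, and between 5.02 and 6.22 in the light. Mean Rpe65 was highest at ZT18, at 7.46 RPKM, where its libraries ran from 2.77 to 10.8 RPKM, and stood at 2.19 RPKM at ZT14. These are means of 4 libraries, and steps other than those at dawn and dusk were not tested.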

How the data were processed

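Retinas from 47 mice were sequenced, and the 4 young ZT2 and 4 young ZT22 libraries are compared here. The authors deposited RPKM values, each library in a column of its own. The tools listed in the submitters' processing notes are HISAT2 2.2.1, Subread 2.0.6 and FastQC 0.23.4, and the build is GRCm39, with no role given for any; for filters and the annotation release, no source used here gives them. In the table, 1 column belongs to no sample given here and was left aside. Groups come from the age and time in the labels. Nothing but the label's count of mice says that libraries are separate animals, so p-values measure the spread between these libraries.

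Because low RPKM values step by what 1 read is worth, totals could be recovered: with GENCODE M21 exon lengths reads were within 0.01 of whole numbers for 32779 of 37323 genes above 0, and for 4543 more with a length chosen to make them whole. M21 belongs to an older build than GRCm39 and served for names, biotypes and lengths only; 355 tested genes have no symbol. Promoters and gene order come from RefSeq on GRCm38.p6; promoters of Actb and Thbs1 were not used here, nor was that of Ttr.

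The 14428 genes that reached 0.5 RPKM in 4 or more of the 8 libraries were tested with limma 3.58.1 (R 4.3.3) on the scale log2(RPKM + 0.5), using a trended eBayes step and Benjamini-Hochberg adjustment over all of them, and the procedure was tested on simulated data. Genes passed at an adjusted p under 0.05 and were called with a fold over 1.5 as well. The age and dusk differences were contrasts of 4 group means. Tables were made with Python 3.11.15 and pandas 2.3.3, and pseudogenes were aligned with blastn 2.17.0.

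The members and the 46 gene lists were chosen with earlier results of these data known. The actin and fatty acid lists, the CArG box and the Nr4a1 promoter were added after the values were seen. The rule for named genes took up to 15 rises and 15 falls by size among called genes without overlap, with a mean of at least 2 RPKM at 1 time and a symbol that is no clone or pseudogene name, giving 4 rises and 14 falls. Added to these were the tested clock genes, up to 4 passing members per list, up to 6 genes with the smallest p for each difference, and the promoters of the 4 leading rises and 4 leading falls. Other genes named in the text were chosen after their values were seen, and a few genes of the lists are not reported here. Alternatives concerned the scaling, pseudocount, filter, block by replicate, libraries in the fit, weights, variance moderation, thresholds and covariate, used voom on the recovered reads, and left out each library.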

Additional observations from a re-analysis of the deposited data

Results flagged for a closer look

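Over 120 groups of 4 libraries, from the named genes and 5 summed marker lists, 3 had a library farther from the rest than Dixon's limit for 4 values; chance flags about 1 in 20 groups. Rora, the nuclear receptor gene of the clock, was lowest in ZT2 replicate 4 at 18.18 RPKM, the nearest other library being at 19.61 RPKM. Dbp, a clock output factor, was lowest in ZT22 replicate 2, at 19.39 RPKM against 22.25 RPKM in the nearest. Hspa1b was highest in ZT22 replicate 4, at 21.66 RPKM against 20.38 RPKM.

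Hspa1b also stood out because its light minus dark difference was higher across dawn than across dusk by 0.8779 on the log2 scale (limma with Benjamini-Hochberg adjustment, adjusted p = 0.00139). The difference was 0.06 log2 across dawn and -0.82 log2 across dusk.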

How the results depend on the processing

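Of the 32 dawn genes called (10 higher, 22 lower), the count was 27 and 26 with a pseudocount of 0.1 and 1, 29 with median-ratio scaling, 28 with quantile normalization, 30 with array weights and 39 with voom on the recovered reads. It fell to 12 (5 higher, 7 lower) with no filter on low values. It was 15 (4 and 11) when all 24 young libraries shared 1 estimate of the spread and 14 (7 and 7) when all 47 did. With the pigment epithelium level as a covariate the count was 0 (0 and 0), and Ttr turned to 0.31, Rgr to 0.22 and Trf to 0.10 log2. Ttr and Rgr are themselves part of that level, and the level did not overlap between ZT2 and ZT22. This fit therefore cannot tell the level apart from the time. By threshold the count was 63 (25 and 38) with no fold minimum, 13 (3 and 10) with a fold over 2 and 9 (3 and 6) at an adjusted p under 0.01. The higher share of those called was 31.2%, and 34.5% and 28.6% under the 2 scalings. Leaving out 1 library gave 16 to 30 called (6 to 14 higher, 8 to 17 lower). All 18 named rises and falls kept their sign in those fits, and 8 passed in every one. For the age difference of the dawn change the count stayed 0, also with each library left out (0 to 0), and for the dawn against dusk difference of the light change, 1 by the main test, it was 3 with median-ratio scaling, 2 with quantile normalization, 31 with array weights, 0 with a fold over 2 and 1 to 6 with a library left out, 6 without young ZT10 replicate 4; the cause was not tested.

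With the replicate number as a block, 0 dawn genes were called (0 higher, 0 lower). The correlations of same-numbered libraries' deviations were -0.12, -0.03, 0.15 and -0.05, and library 3 alone correlated best with its own number. So few correlations cannot decide whether the numbers pair the libraries, and a batch shared by number was not tested. The block also makes the fit estimate more terms from the same libraries, which leaves less to estimate the spread from. Why the count fell to 0 was not tested.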

Other observations

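Several gene lists beyond those described above had no member past the threshold across dawn in young retina. None of 29 tested heat shock chaperones, 20 endoplasmic reticulum chaperones, 16 genes of the ATF4 stress response, 23 of cholesterol synthesis and uptake, 21 antioxidant genes or 14 neuropeptide precursors passed the limma test. Of 33 splicing factor genes none passed; 5 were higher at ZT2 without overlap, against 4.48% of all tested genes, among them Srsf5 (0.40 log2), Srsf6 (0.23) and Srsf9 (0.22), and 1 was lower without overlap, against 3.71%, the kinase gene Clk3 (-0.19). Of 13 photoreceptor transcription factors none passed, with Nr2e3, a repressor of cone genes in rods, at 0.47 log2 and higher in every ZT2 library (limma adjusted p = 0.0753), and Crx, the regulator of both photoreceptor types, at 0.00 ± 0.07 log2 (SE). Ddit4, a gene induced by stress and glucocorticoid hormone, was lower in every ZT2 library at -0.46 log2 (limma adjusted p = 0.0515). These genes were named after their values were seen.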
